A study of Malus domestica with 16 samples.

Results

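Transcript levels of 8 transcription factors were followed in apple peel after long cold storage. The 8 genes are regulators in the study's network for superficial scald, the browning of the peel that appears during and after cold storage. They are HD-ZIP (MDP0000859459), NF-YA (MDP0000183865), FAR1 (MDP0000173549), YABBY (MDP0000261432), ZF-HD (MDP0000253357), bHLH (MDP0000137325), MYB (MDP0000159011) and S1Fa-like (MDP0000276000). Each was read from the probe that the array names as sense for that gene model, so that 8 of the 59208 sense gene model probes were described. The network was built from genes called on these same arrays, and all 8 regulators were called in at least 1 of the 3 comparisons with Control, as were 4749 of the sense probes. That a regulator changed was therefore part of how it entered the network and is given as a description. The network lists 32 regulators. The study's text names the families of these 8 together with glutathione S-transferase genes, for marked treatment-specific regulation. The study's text also lists MDP0000261432 among glutathione S-transferase genes, but its annotation is a YABBY factor and it was kept as one.

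Wild-type Granny Smith apples were picked at physiological maturity, which the labels equate with full ripeness, and spent 6 months in storage at 0 °C and a relative humidity of 95%. Control fruit received no treatment, 1-MCP fruit were exposed to the ethylene perception blocker 1-MCP for 24 h at 0 °C before storage, O3 fruit were stored in air enriched with 0.3 µL/L ozone, and 1-MCP+O3 fruit received both. The labels give 1000 ppm of 1-MCP and the methods a different dose. Every group had 2 peel RNA extracts, A and B, and the methods describe peel samples of 7 apples. The methods speak of 2 sampling repetitions for a comparison. Neither they nor the labels tell how A and B relate to the fruit samples. The p-values therefore measure only the spread between these extracts, which may be technical. Extracts of the same letter were hybridized in pairs to 8 two-colour arrays, 2 for each of 1-MCP vs Control, O3 vs Control, 1-MCP+O3 vs Control and 1-MCP+O3 vs O3. The first-named group carried the dye Cy3 on array A and Cy5 on array B, so that dye and extract cannot be told apart within a comparison. The comparisons share extracts, and the Control extracts enter 3 of them. The arrays of 1-MCP vs Control and O3 vs Control lay on slide 1 and those of the other comparisons on slide 2. All 1-MCP hybridizations were thus on slide 1 and all 1-MCP+O3 hybridizations on slide 2. A difference between these groups cannot be told apart from one between slides.

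Transcription factors bind short DNA motifs and raise or lower the transcription of other genes. HD-ZIP factors join a homeodomain to a leucine zipper, and the best match of this one is Arabidopsis ATHB16, which restrains leaf cell expansion there. NF-YA is the subunit through which the NF-Y complex recognizes the CCAAT box. FAR1 proteins derive from transposases and act in far-red light signalling in Arabidopsis. YABBY factors set the abaxial side of lateral organs, and the match of the ZF-HD member is the Arabidopsis mini zinc finger MIF1, a short protein that lacks the homeodomain. The match of the bHLH member is a factor known in Arabidopsis as MYC4, which acts in jasmonate signalling. The MYB member matches ATMYB6, and S1Fa proteins were first described in spinach as binding a negative element of a promoter for a plastid ribosomal protein. Glutathione S-transferases (GSTs) couple glutathione to reactive compounds and belong to the defence of the cell against oxidation and xenobiotics.

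The scanner software set 47.8% to 54.9% of the Cy3 signals and 36.1% to 43.6% of the Cy5 signals of the 8 arrays well above background. All 8 sense probes were well above background in at least 1 channel of every array, 6 of them in all 16 channels, NF-YA in 15 and FAR1 in 13, and none was saturated. The FAR1 probe was well above background in 5 of 6 Control and 2 of 4 O3 hybridizations. Arrays number 2 per comparison, and this limits the precision of every value. All 7 markers of epidermis and cuticle were well above background in both channels of all 8 arrays. The xylem marker XSP1 was above background there too, with a signal of 201 and 196 in Control, 217 and 189 in O3, 953 and 709 in 1-MCP and 1324 and 760 in 1-MCP+O3. Peel from 1-MCP fruit had a higher summed signal of the 7 peel markers (25866 and 36362) than Control peel (14074 and 16025), and the same was true of 1-MCP+O3 (28213 and 33724) against O3 (12182 and 12410). Fewer cells of a type and less RNA per cell cannot be told apart in such samples.

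The level of each regulator was taken as its normalized log2 intensity, averaged over the hybridizations of an extract. In HD-ZIP the levels of extracts A and B were 7.50 and 6.93 in Control, 8.28 and 7.44 in O3, 10.18 and 9.53 in 1-MCP and 10.36 and 9.80 in 1-MCP+O3. Both groups that received 1-MCP lay clearly above both groups that did not, while within each of these pairs the extracts overlapped. NF-YA had the same division, with 6.66 and 6.45 in Control, 6.90 and 6.67 in O3, 9.34 and 8.67 in 1-MCP and 8.56 and 8.51 in 1-MCP+O3. No neighbouring groups overlapped in NF-YA, although the step from Control to O3 was 0.22. FAR1 followed at a smaller scale, with 6.72 and 6.65 in Control, 6.58 and 6.51 in O3, 7.47 and 7.63 in 1-MCP and 6.95 and 7.30 in 1-MCP+O3. In these 3 regulators the highest levels stood in the 2 groups with 1-MCP, and neighbours across the division did not overlap. With 2 extracts per group, and no share over all sense probes computed, this is a description only.

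YABBY and ZF-HD had the opposite division. YABBY stood at 9.17 and 9.65 in Control, 7.82 and 8.33 in O3, 6.46 and 6.98 in 1-MCP+O3 and 6.18 and 6.92 in 1-MCP. Control was thus highest, O3 lay between, and the 2 groups with 1-MCP overlapped at the bottom. ZF-HD ran from 7.76 and 8.07 in Control through 7.50 and 7.68 in O3 to 6.89 and 6.96 in 1-MCP+O3 and 6.62 and 6.80 in 1-MCP. Extract A of Control and extract B of O3 differed by less than the extracts of Control did between themselves. In the bHLH gene O3 was highest at 11.22 and 10.60, Control followed at 9.92 and 9.54, 1-MCP+O3 at 9.06 and 9.31, and 1-MCP was lowest at 7.67 and 8.05. No neighbouring groups overlapped, but the 6 Control hybridizations of this probe ran from 9.38 to 10.93. The Control mean was 9.44 and 9.40 in the comparisons on slide 1 and 10.35 in that on slide 2. The step in bHLH from 1-MCP to 1-MCP+O3 therefore cannot be told apart from slide. Taken through Control, it was -0.070 for letter A and 0.82 for letter B, without a call.

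MYB was lowest in Control, at 8.99 and 9.0, and highest in O3, at 10.16 and 9.93. Its levels in 1-MCP (9.38 and 9.76) and 1-MCP+O3 (9.69 and 9.73) lay between and overlapped. S1Fa-like was a bright probe with little division between groups, at 12.60 and 12.81 in Control, 13.24 and 12.74 in O3, 13.45 and 12.68 in 1-MCP and 13.39 and 13.34 in 1-MCP+O3. Every neighbouring pair of groups overlapped in S1Fa-like. The plot of levels by group shows the 8 patterns at a common span.

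**Figure D1:**
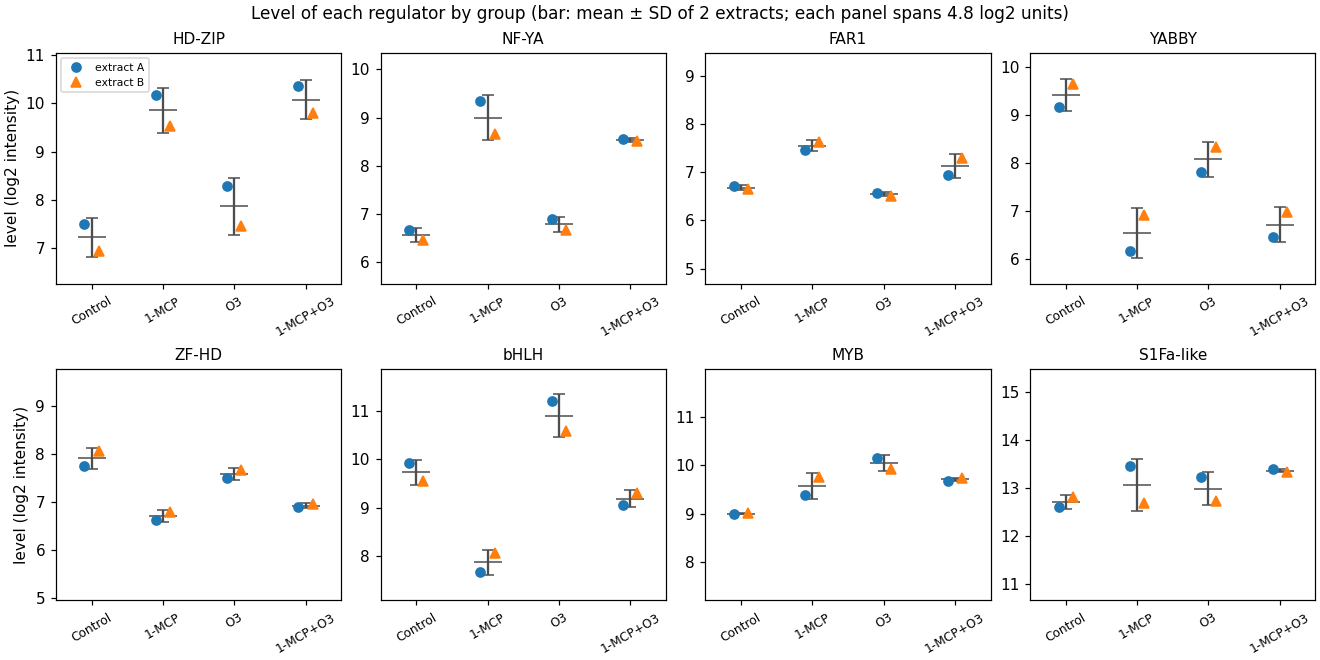
Level of each regulator (normalized log2 intensity, y axis) in the 4 groups (x axis), with extract A as circles, extract B as triangles and the mean ± SD of the 2 extracts as bars. HD-ZIP, NF-YA and FAR1 were highest in the groups with 1-MCP, YABBY and ZF-HD lowest there, and bHLH and MYB were highest in O3.

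The first comparison asks how blocking ethylene perception changed the peel of fruit stored in normal air. At an unadjusted limma p under 1%, the threshold of the study, 3 of the 8 regulators rose and 3 fell in 1-MCP vs Control. Over all sense probes 4.63% were called in this comparison, 2.26% upward and 2.37% downward. HD-ZIP had log2 ratios of 3.30 on array A and 2.71 on array B, a mean rise of 8.05-fold (log2 3.01, SE 0.20, unadjusted p = 0.000926). NF-YA had ratios of 2.85 and 2.35, a mean rise of 6.05-fold (log2 2.60, SE 0.18, unadjusted p = 0.000978). FAR1 rose far less, with ratios of 0.70 and 0.96 and a mean of 1.78-fold (log2 0.83, SE 0.12, unadjusted p = 0.0077).

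Among the regulators that fell with 1-MCP, YABBY had the largest change. Its ratios were -3.02 and -2.69, and its level was 7.25-fold lower (log2 -2.86, SE 0.13, unadjusted p = 0.000358). The bHLH gene had ratios of -1.72 and -1.44 and was 2.99-fold lower (log2 -1.58, SE 0.13, unadjusted p = 0.0015). ZF-HD had nearly equal ratios of -1.29 and -1.32 and was 2.47-fold lower (log2 -1.30, SE 0.093, unadjusted p = 0.00111). The other two were not called. MYB was higher on both arrays (0.41 and 0.76, unadjusted p = 0.029), and S1Fa-like was higher on array A (0.66) and lower on array B (-0.18). After Benjamini-Hochberg adjustment over all probes 0 regulators passed 0.05 in limma, with a lowest adjusted p of 0.181, while 7 of 8 had an unadjusted p under 0.05. Median centring ended the calls of FAR1, ZF-HD and bHLH (unadjusted p = 0.0329, 0.0228 and 0.0166). The calls of FAR1 and bHLH were lost when either replicate was left out (unadjusted p from 0.021 to 0.056 for FAR1 and from 0.051 to 0.084 for bHLH, with the spread pooled over the comparisons). The 7 peel markers (median log2 ratio 0.96) and XSP1 (2.06) were also called up here, and their part in these changes was not tested.

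Fewer of these regulators were called with ozone than with 1-MCP, as were fewer of all sense probes. In O3 vs Control 2 rose and 1 fell, where 2.45% of all sense probes were called, 1.71% upward and 0.738% downward. The bHLH gene had ratios of 1.25 and 1.15, a rise of 2.30-fold (log2 1.20, SE 0.086, unadjusted p = 0.0012), so that this gene was lower with 1-MCP and higher with ozone. MYB rose 2.03-fold with ratios of 1.14 and 0.90 (log2 1.02, SE 0.11, unadjusted p = 0.00337). YABBY was lower by 2.38-fold with ratios of -1.15 and -1.35 (log2 -1.25, SE 0.10, unadjusted p = 0.00167). It was the only one of the 8 that was called downward in both 1-MCP vs Control and O3 vs Control.

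The remaining 5 regulators were not called with ozone. HD-ZIP was slightly higher on both arrays (0.27 and 0.43, unadjusted p = 0.037), as was NF-YA (0.15 and 0.21, unadjusted p = 0.117). Their mean ratios of 0.35 and 0.18 compare with 3.01 and 2.60 for 1-MCP. FAR1 lay just below 0 (-0.092 and -0.18), and the arrays of ZF-HD (0.11 and -0.40) and S1Fa-like (0.92 and -0.24) went opposite ways. In limma 0 of 8 regulators had an adjusted p under 0.05 (lowest 0.612), and 4 had an unadjusted p under 0.05. All 3 calls were lost when loess was replaced by median centring (unadjusted p = 0.184 for bHLH, 0.243 for MYB and 0.086 for YABBY), a change that also turned the calls over all sense probes from 69.8% upward to 7.79% upward. The bHLH call was lost when either replicate was left out (unadjusted p from 0.121 to 0.147) and that of MYB without replicate A (unadjusted p = 0.015). None of the 7 peel markers was called here (median log2 ratio -0.25, unadjusted limma threshold of 1%).

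The third comparison asks how the peel of fruit given both treatments differed from that of untreated fruit. In 1-MCP+O3 vs Control 3 regulators rose and 2 fell, against 3.62% of sense probes called, 2.05% upward and 1.57% downward. HD-ZIP had ratios of 2.38 and 2.60, a rise of 5.62-fold (log2 2.49, SE 0.12, unadjusted p = 0.00038). NF-YA had ratios of 1.70 and 2.24, a rise of 3.92-fold (log2 1.97, SE 0.19, unadjusted p = 0.00257). S1Fa-like was called in this comparison alone, with ratios of 0.89 and 0.80 and a mean rise of 1.79-fold (log2 0.84, SE 0.11, unadjusted p = 0.00515). That call was lost under 7 of 11 alternatives, and when either replicate was left out (unadjusted p from 0.136 to 0.171).

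YABBY was 6.35-fold lower in 1-MCP+O3 than in Control, with ratios of -2.65 and -2.68 (log2 -2.67, SE 0.10, unadjusted p = 0.000192). ZF-HD was 2.18-fold lower, with ratios of -1.0 and -1.24 (log2 -1.12, SE 0.12, unadjusted p = 0.00361), a call lost under median centring (unadjusted p = 0.134). The bHLH gene was lower on both arrays but by unlike amounts (-1.79 and -0.62), and its unadjusted p of 0.049 missed the threshold. FAR1 (0.27 and 0.98) and MYB (0.89 and 0.37) were higher on both arrays without a call. FAR1 was called without replicate A (unadjusted p = 0.00317) and MYB without replicate B (unadjusted p = 0.0058). All 8 regulators thus had both arrays on the same side of 0. In limma 0 had an adjusted p under 0.05 (lowest 0.337), and 7 had an unadjusted p under 0.05. Of the 7 peel markers 1 was called up (median log2 ratio 0.91), as was XSP1 (2.48), and their part was not tested.

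**Figure D2:**
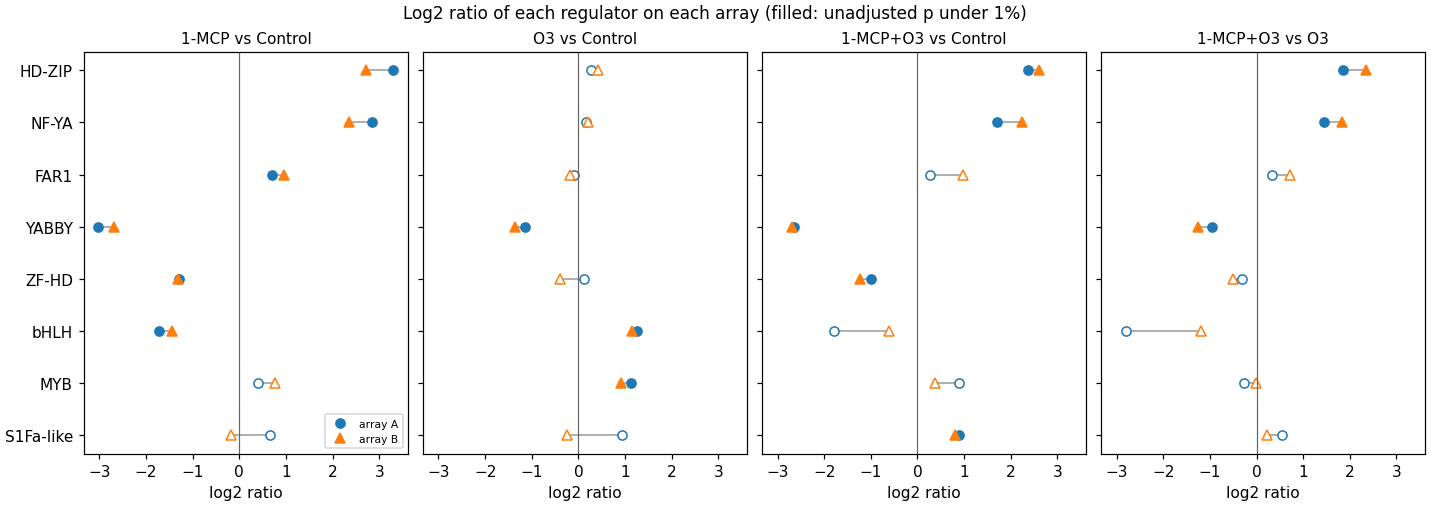
Log2 ratio (x axis) of each regulator (y axis) on array A (circles) and array B (triangles) in the 4 comparisons, with filled symbols where the unadjusted p was under 1%. HD-ZIP and NF-YA lie at 1.45 or above in the 3 comparisons that include 1-MCP on 1 side, YABBY lies left of 0 in all 4, and bHLH changes side between 1-MCP vs Control and O3 vs Control.

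The effect of 1-MCP in ozone was read from the arrays of 1-MCP+O3 vs O3, which share no extract with 1-MCP vs Control. In this comparison 2 regulators rose and 1 fell, against 3.09% of sense probes called, 1.38% upward and 1.72% downward. HD-ZIP rose 4.27-fold with ratios of 1.85 and 2.34 (log2 2.09, SE 0.18, unadjusted p = 0.00266). NF-YA rose 3.12-fold with ratios of 1.45 and 1.83 (log2 1.64, SE 0.15, unadjusted p = 0.00318). YABBY was 2.15-fold lower with ratios of -0.96 and -1.26 (log2 -1.11, SE 0.13, unadjusted p = 0.00597). All 3 calls were lost under median centring (unadjusted p = 0.0125 for HD-ZIP, 0.0183 for NF-YA and 0.0899 for YABBY) and without moderation, and that of YABBY also under 2 of the other alternatives. Leaving out either replicate kept them. The response of these 3 regulators to 1-MCP had the same direction on arrays of other extracts.

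The bHLH gene had the largest mean decrease in 1-MCP+O3 vs O3, but its ratios of -2.80 and -1.20 left an SE of 0.51 and an unadjusted p of 0.039. It was called in 5 of 11 alternatives and without replicate B (unadjusted p = 0.00122). FAR1 was higher on both arrays (0.34 and 0.71), ZF-HD lower on both (-0.31 and -0.51), S1Fa-like higher (0.54 and 0.22) and MYB slightly lower (-0.28 and -0.021), all without a call. The same contrast was also computed through Control, as the ratio of 1-MCP+O3 vs Control minus that of O3 vs Control. This gave -0.98 for ZF-HD in place of -0.41 and -2.41 for bHLH in place of -2.0, and both were then called (unadjusted p = 0.00426 and 0.00556). For the other 6 the direct and indirect means differed by at most 0.31, in YABBY. In limma 0 regulators had an adjusted p under 0.05 (lowest 0.431), and 6 had an unadjusted p under 0.05. Of the 7 peel markers 5 were called up (median log2 ratio 1.26), XSP1 was higher on both arrays without a call (2.70 and 1.26, unadjusted p = 0.032), and their part was not tested.

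A difference between the 1-MCP responses in the presence and absence of ozone was tested directly, as the ratio of 1-MCP+O3 vs O3 minus that of 1-MCP vs Control for each letter. The difference was called for 3 regulators, 2 upward and 1 downward, where 1.55% of sense probes were called, 0.789% upward and 0.762% downward. YABBY fell with 1-MCP by a log2 ratio of -2.86 in air and of -1.11 in ozone, a difference of 1.75 (2.06 for letter A and 1.44 for letter B, SE 0.20, unadjusted p = 0.0016). In O3 peel this gene already stood 2.38-fold below Control. Its mean level was 6.55 in 1-MCP and 6.72 in 1-MCP+O3. Its antisense probe, not well above background in any channel, read 6.03 and 6.15 in these groups. Whether nearness to the background limited the fall of YABBY in ozone was not tested. ZF-HD had -1.30 in air and -0.41 in ozone, a difference of 0.90 (0.98 and 0.81, SE 0.12, unadjusted p = 0.00302). MYB had 0.58 in air and -0.15 in ozone, neither of them called, and a difference of -0.73 (-0.68 and -0.78, SE 0.12, unadjusted p = 0.00502).

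The difference in YABBY was kept when 1-MCP+O3 vs O3 was taken through Control (1.44, unadjusted p = 0.00182), whereas those of ZF-HD (0.33, unadjusted p = 0.141) and MYB (-0.97, unadjusted p = 0.02) were not called by that route. NF-YA (-0.96, unadjusted p = 0.026) and HD-ZIP (-0.92, unadjusted p = 0.048) had smaller ratios in ozone for both letters, without a call for the difference. In limma the lowest adjusted p among the 8 was 0.916, and 0 passed 0.05, with 5 of 8 under an unadjusted 0.05. The difference in ZF-HD was not called without replicate A (0.81, unadjusted p = 0.074) or without replicate B (0.98, unadjusted p = 0.044), nor was that in MYB (-0.78 and -0.68, unadjusted p = 0.082 and 0.112).

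**Figure D3:**
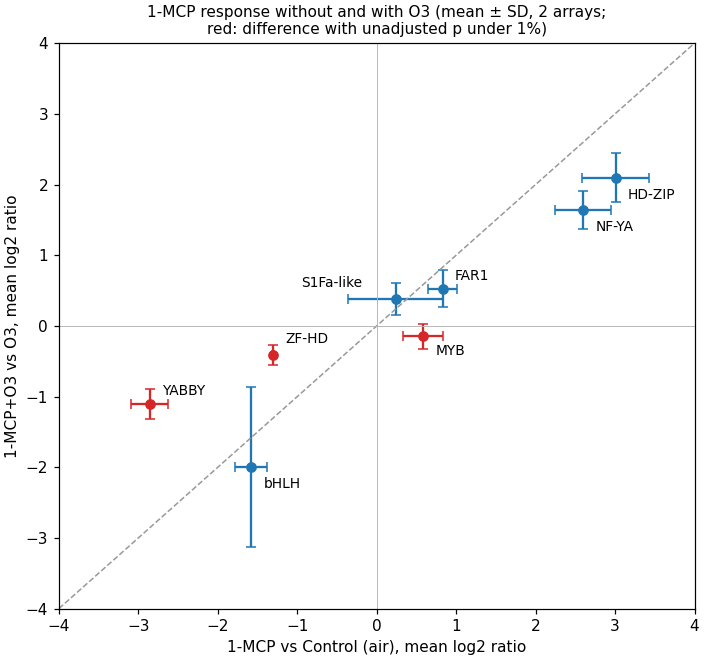
Mean log2 ratio of each regulator in 1-MCP vs Control (x axis) and in 1-MCP+O3 vs O3 (y axis), with error bars of 1 SD over 2 arrays and a dashed line of equal response. YABBY, ZF-HD and MYB, in red, lie off the line with an unadjusted p under 1% for the difference, and HD-ZIP and NF-YA lie below it without a call.

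Adding ozone to 1-MCP changed none of the 8 regulators past the threshold. No array set 1-MCP+O3 against 1-MCP, so the ratios of both against Control were subtracted for each letter, where 4.09% of sense probes were called, 2.03% upward and 2.06% downward. The arrays of the 2 ratios lay on different slides, so added ozone and slide cannot be told apart in this contrast. In limma 0 of the 8 were called, 0 had an unadjusted p under 0.05, and the lowest adjusted p was 0.541. With extract levels compared without pairing, bHLH was called upward. The 95% intervals of the mean difference were widest for NF-YA (-1.39 to 0.14) and narrowest for ZF-HD (-0.18 to 0.55), so changes of these sizes were within the error. S1Fa-like came nearest to a call at 0.60 (0.22 and 0.98, unadjusted p = 0.0504).

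The regulators were then set beside 11 GST genes. They are 7 named with the network, 3 of which match GSTU8 (MDP0000178304, MDP0000805474, MDP0000766223) and 1 each GSTU25 (MDP0000722969), GSTU21 (MDP0000566567), GSTF8 (MDP0000256360) and GSTF12 (MDP0000252292), the In2-1 gene MDP0000188674, and 3 genes marked as glutathione-related in the modules listed for a regulator (MDP0000303658, MDP0000511650, MDP0000065895). The tau (U) and phi (F) classes are the large plant classes of these enzymes, and GSTF12 is needed in Arabidopsis to bring flavonoid pigments to the vacuole. The module lists were available in part only. The GST genes were chosen by the study on these arrays, so their direction is not independent evidence.

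All 11 GST genes lay below 0 on both arrays of 1-MCP vs Control, with a median log2 ratio of -0.90, that of GSTF12, which is a bound, against 0.0069 over all sense probes, and 3 of them fell. All 11 lay above 0 on both arrays of O3 vs Control (median 1.14 against -0.0043), and 6 rose. All 11 again lay below 0 on both arrays of 1-MCP+O3 vs O3 (median -1.07 against 0.0085), and 3 fell. In 1-MCP+O3 vs Control they were divided, with 7 higher and 4 lower (median 0.24 against 0.0017) and 2 called down. Against 1-MCP alone, 1-MCP+O3 peel had all 11 higher, with 9 called up and a median of 1.06, where 0 of the 8 regulators were called. Added ozone and slide cannot be told apart in this contrast.

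On the 6 arrays where the 11 GST genes stood on 1 side, the bHLH gene was the only regulator on their side every time. Of the 33102 sense probes above background with a value on every array, 6.39% were on that side on all 6. ZF-HD was on their side on 5 of the 6 arrays (15.3% of sense probes on 5 or more), and MYB and YABBY on 4 (31.4% on 4 or more). HD-ZIP, NF-YA and S1Fa-like were on their side on 2, and FAR1 on 0, as were 4.16% of sense probes. The pattern of HD-ZIP and NF-YA was mixed. Both were opposite to the GST genes in 1-MCP vs Control and 1-MCP+O3 vs O3 and on their side in O3 vs Control. In 1-MCP+O3 vs 1-MCP, where all 11 GST genes were higher, HD-ZIP (-0.93 and -0.11) and NF-YA (-1.15 and -0.10) were lower without a call.

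**Figure D4:**
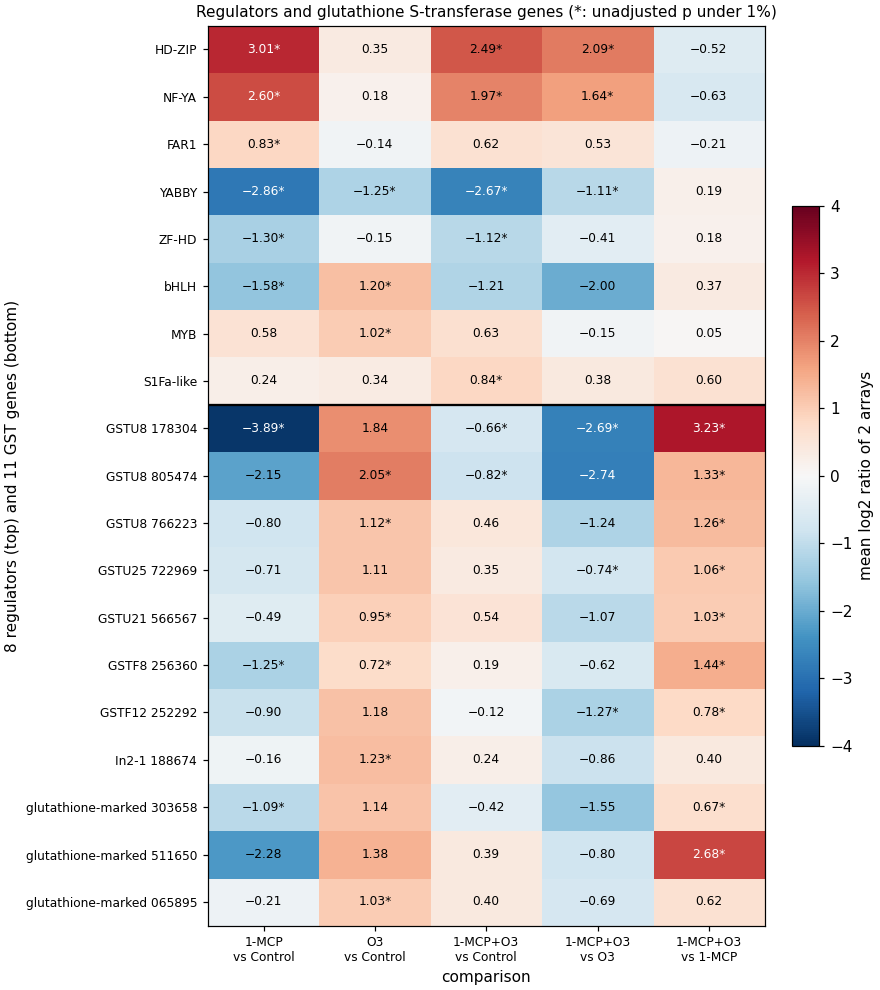
Mean log2 ratio of 2 arrays (colour and number) for the 8 regulators (top) and 11 GST genes (bottom, last 6 digits of the identifier) in 5 comparisons (x axis), with an asterisk at an unadjusted p under 1% and the GSTF12 value in 1-MCP vs Control a bound. The GST genes are lower with 1-MCP and higher with ozone in every row of the columns other than 1-MCP+O3 vs Control, and bHLH is the regulator with the same signs in all of these.

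Counted over all 8 arrays, the bHLH gene and a GST gene stood on the same side of 0 on 76 of 88 occasions (8 arrays by 11 genes), with 6 to 8 arrays for each gene. The 8 of 8 cases were MDP0000178304, MDP0000805474, MDP0000252292 and MDP0000303658. ZF-HD reached 65 of 88, MYB 56 and YABBY 54, whereas HD-ZIP, NF-YA and S1Fa-like each reached 34. FAR1 stood on the same side on 12 of 88 occasions and on no more than 2 arrays with any GST gene. The counts were unchanged without background correction, with scaling between arrays and with outlier spots kept, and with processed signals MYB reached 45. With median centring in place of loess FAR1 reached 41, S1Fa-like 74 and bHLH 58, so that the order of the regulators changed. Where the 11 genes stand on 1 side, an array enters these totals 11 times. Set against the median of the 11 genes, which counts each array once, bHLH and MYB were both on its side on 6 of 8 arrays. Of the sense probes above background 14.0% reached this. ZF-HD was on the side of the median on 5 arrays (31.2%), HD-ZIP, NF-YA, YABBY and S1Fa-like on 4 (63.1%) and FAR1 on 2 (97.2%). The arrays share extracts, and no test was made of these counts.

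Regulators and the GST genes in modules listed for them differed in how they moved. Such a gene is called a partner here. In the rows used, the regulator is listed as acting on the module and not as a gene in it. Whether such a link is meant to raise or lower the partner was not examined. The bHLH gene and its module partners GSTU25 (MDP0000722969) and GSTU21 (MDP0000566567) were on the same side on 7 and 6 of 8 arrays, shares reached by 7.23% and 14.0% of sense probes above background. GSTU25 had mean log2 ratios of -0.71 with 1-MCP and 1.11 with ozone, and GSTU21 of -0.49 and 0.95, next to -1.58 and 1.20 for bHLH. In 1-MCP+O3 vs Control the partners were at 0.35 and 0.54 while bHLH was at -1.21. ZF-HD and its partner GSTF12 (MDP0000252292) were on the same side on 7 of 8 arrays (9.92% of sense probes), and in O3 vs Control their means were -0.15 and 1.18. In 1-MCP vs Control ZF-HD was at -1.30, while GSTF12 was not well above background in either 1-MCP hybridization, so its level was at least 1.87-fold higher in Control (not called, unadjusted p = 0.0106, limma adjusted p = 0.333). YABBY and its partner MDP0000303658 agreed on 6 of 8 arrays (19.9%), the exceptions being both ozone arrays, where the partner was at 0.76 and 1.52.

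The HD-ZIP gene and its module partners moved largely apart. Its partner GSTU8 (MDP0000178304) had the largest decrease of the 11 with 1-MCP, with log2 ratios of -3.14 and -4.64 where HD-ZIP had 3.30 and 2.71. The pair was on the same side only on the 2 ozone arrays, where GSTU8 was at 2.47 and 1.22. Polyphenol oxidase (MDP0000699845), the enzyme that oxidizes phenols to brown quinones, is in the same module as this GSTU8 gene. It was on the side of HD-ZIP on the same 2 arrays alone. Its ratios were -3.21 and -5.78 in 1-MCP vs Control (not called, unadjusted p = 0.0123) and -2.09 and -2.21 in 1-MCP+O3 vs Control (called down). The partners In2-1 (MDP0000188674) and a lipid transfer protein (MDP0000549134) were on the side of HD-ZIP on 4 and 5 of 8 arrays. Of the sense probes above background 63.1% and 38.9% reached this. The study's text places both genes, with MDP0000722969 and MDP0000566567, under a bHLH factor instead. They were on the side of bHLH on 6 and 5 of 8 arrays, shares reached by 14.0% and 38.9%. FAR1 was on the side of its partners GSTF8 (MDP0000256360) and MDP0000065895 on 2 arrays each, and S1Fa-like on the side of MDP0000511650 on 3. No GST gene was in a module listed for NF-YA or MYB in the rows used.

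**Figure D5:**
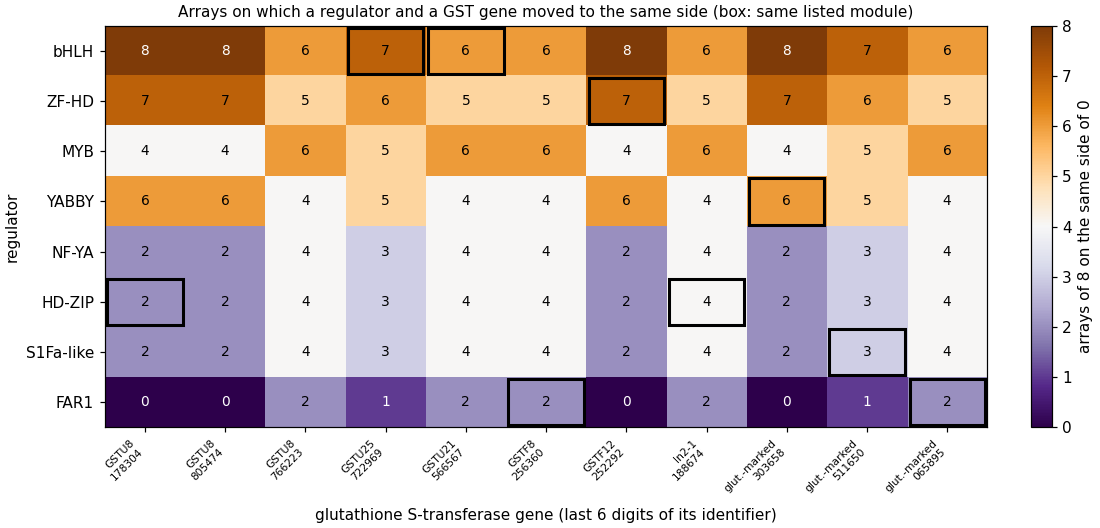
Number of the 8 arrays on which a regulator (y axis) and a GST gene (x axis) lay on the same side of 0. Boxes mark a GST gene in a module listed for that regulator. Counts run from 6 to 8 in the bHLH row and from 0 to 2 in the FAR1 row.

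The genes most like each regulator were found by the root mean square (RMS) difference of the log2 ratios over the 8 arrays, among 33101 other sense probes above background. HD-ZIP was nearest to MDP0000181372 (a rhomboid family protein), MDP0000682327 (beta-galactosidase BGAL8) and MDP0000522954, at RMS differences of 0.28 to 0.32 where the median over all probes was 2.26. NF-YA was nearest to MDP0000308568 (a SEC14-type lipid transfer factor), MDP0000561026 (the tonoplast water channel GAMMA-TIP) and MDP0000880187 (the plastid protein PTAC16), at 0.17 to 0.22 against 1.88. FAR1 was nearest to MDP0000121179, MDP0000283384 (calcium ion binding) and MDP0000250127 (the fatty acid synthesis enzyme KAS I), at 0.12 to 0.13 against 0.75. For YABBY the nearest genes, MDP0000323987, MDP0000121374 and MDP0000242083, stayed at 0.49 to 0.50 against 2.18, so that its first 3 neighbours were less close than those of the other 7 regulators.

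The bHLH gene was nearest to MDP0000239410, MDP0000122792 and MDP0000129000 at 0.22 to 0.29, against a median of 1.69. Their mean log2 ratios were -1.80, -1.79 and -1.62 in 1-MCP vs Control and 1.07, 1.04 and 1.15 in O3 vs Control. These 3 were picked for ratios like those of bHLH, so the shared directions follow from the choice. ZF-HD was nearest to MDP0000663236, MDP0000321036 and MDP0000188669 at 0.19 to 0.20 against 1.01. MYB was nearest to MDP0000309732, MDP0000891965 and MDP0000272795 at 0.14 to 0.23 against 0.83. S1Fa-like was nearest to MDP0000187390, MDP0000264582 and MDP0000175028 at 0.13 to 0.14 against 0.76. No function name was matched to these genes in the annotation used here.

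The network lists 24 further regulators, whose values are given beside those of the 8. Of these 24, 6 rose and 9 fell in 1-MCP vs Control, and 1 rose and 0 fell in O3 vs Control. In 1-MCP+O3 vs Control 2 rose and 9 fell, and in 1-MCP+O3 vs O3 6 rose and 3 fell. Over all sense probes 4.63%, 2.45%, 3.62% and 3.09% were called in these comparisons. The 24, like the 8, come from a network built from genes called on these arrays. The study's text singled out the families of the 8, with GST genes, for marked treatment-specific regulation. The 8 and the 24 were thus not chosen alike, and the contrast between them is a description only. The median log2 ratio of the 24 was -0.19 in 1-MCP vs Control and -0.072 in O3 vs Control, against 0.41 and 0.26 for the 8. In 1-MCP+O3 vs 1-MCP 2 of the 24 rose and 2 fell, where 0 of the 8 and 4.09% of sense probes were called. For the difference of the 1-MCP response, 6 of the 24 were called upward and 2 downward, against 1.55% of sense probes. None of the 24 was called in all 3 comparisons with Control. YABBY was, but its call in O3 vs Control was lost under median centring. The share of all sense probes called in all 3 was not computed. After adjustment in limma 0 of the 24 passed 0.05 in any comparison, while 20, 5, 16 and 18 had an unadjusted p under 0.05 in the 4 comparisons in this order and 11 in 1-MCP+O3 vs 1-MCP.

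The antisense probes of the 8 gene models gave 0 calls in limma in all 6 contrasts, and 0 had an unadjusted p under 0.05. Over all antisense probes 1.31% were called in 1-MCP vs Control, 0.574% in O3 vs Control, 0.77% in 1-MCP+O3 vs Control, 0.663% in 1-MCP+O3 vs O3, 1.57% in 1-MCP+O3 vs 1-MCP and 0.446% for the difference of the 1-MCP response. Those of HD-ZIP, YABBY, bHLH and FAR1 were well above background in 0 of 16 channels, and that of NF-YA in 3. Signal on the antisense strand was most regular for S1Fa-like (14 of 16 channels) and ZF-HD (11 of 16), followed by MYB (8 of 16). The antisense ratio of MYB in O3 vs Control was 0.20 and 0.43 (unadjusted p = 0.065), next to 1.14 and 0.90 for its sense probe.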

How the data were processed

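Peel RNA was measured on 8 two-colour Agilent arrays. The authors scanned and extracted the arrays. The deposited median intensities, of spots and of their local background, had no background subtracted. The deposited processed intensity of both channels had been background-subtracted and dye-normalized by the scanner software, per the file headers. The submitters' processing notes name limma. From each array 14 columns entered, and 19 others were not analysed here.

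Spots flagged as outliers were omitted. After normexp background correction (offset 50) and loess within arrays, spots of 1 probe were averaged, and each log2 ratio was oriented as the first-named group over the second. The 2 arrays of a comparison were fitted with limma 3.58.1 (lmFit and eBayes) in R 4.3.3 over all 133709 probes, with a call at an unadjusted p under 1% and Benjamini-Hochberg adjustment over all probes. Levels were obtained per channel after loess and Aquantile normalization between arrays, as log2 intensities per extract. Fitting was tested on simulated data. Correlations of the A minus B deviations ran from -0.53 to 0.66 between groups and follow the dye as well as the letter.

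The members, gene lists and tests were chosen with earlier results of these data known. Named genes are the 8 regulators, the GST genes and module partners listed with them, and for each regulator the 3 sense probes with the smallest RMS difference. No other regulator met the rule for naming. The alternatives tried were other background, normalization, filter, moderation, model, pairing and threshold choices, and leaving out each replicate. Paths through Control, crossed letters and the alternatives for the GST counts were added after seeing the data. Probe sequences and genome positions were not analysed here.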

Additional observations from a re-analysis of the deposited data

Results flagged for a closer look

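The response to 1-MCP differed between peel stored in ozone and in air for 3 regulators, by a limma test of the difference itself at an unadjusted p under 1%. The log2 difference was 1.75 for YABBY (unadjusted p = 0.0016), 0.90 for ZF-HD (unadjusted p = 0.00302) and -0.73 for MYB (unadjusted p = 0.00502), with both letters on the same side in each. None passed an adjusted p of 0.05 in limma (0.916 for all 3). Of the 24 further regulators of the network, 6 were called upward and 2 downward for the same difference, against 1.55% of all sense probes. Only the difference in YABBY was also called when 1-MCP+O3 vs O3 was taken through Control. The levels of YABBY in both groups with 1-MCP stood near the background, and the part of this was not tested. The 2 arrays that enter each difference lay on different slides, so slide and storage atmosphere cannot be told apart here.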

How the results depend on the processing

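Of 528 values of single regulators under 11 planned settings other than the adjusted threshold and leaving out a replicate, 8 changed sign. The sizes moved too. Under these settings the log2 ratio in 1-MCP vs Control ran from 2.44 to 3.97 for NF-YA and from 2.64 to 3.88 for HD-ZIP. For YABBY it ran from -3.95 to -2.81. In 1-MCP+O3 vs Control NF-YA ran from 1.76 to 3.98. With the adjusted threshold of 0.05, 0 regulators were called in every comparison, against 6, 3, 5 and 3 in 1-MCP vs Control, O3 vs Control, 1-MCP+O3 vs Control and 1-MCP+O3 vs O3, and 3 for the difference of the 1-MCP effect between O3 and air. Without moderation the counts in this order were 1, 0, 1, 0 and 0. Median centring gave 3, 0, 3 and 0, processed signals 1 in O3 vs Control, 5 in 1-MCP+O3 vs O3 and 1 for the difference. Limited to probes above background, 3 were called in 1-MCP+O3 vs Control and 1 for the difference. The joint fit with a dye term called 8 in 1-MCP+O3 vs Control and 6 in 1-MCP+O3 vs O3. Through Control, 5 were called in 1-MCP+O3 vs O3 and 1 for the difference. Arrays pair extracts of 1 letter, and without this replicate block 6 were called in 1-MCP+O3 vs O3, 1 in 1-MCP+O3 vs 1-MCP and 1 for the difference. Crossed letters, tried where the letters deviated in opposite ways, called 6 in 1-MCP vs Control, 7 in 1-MCP+O3 vs Control and 3 in 1-MCP+O3 vs O3. Leaving out a replicate gave 1 to 2 calls in O3 vs Control and 1 to 2 for the difference. The cause of these changes was not tested.

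Signs turned only where the main value was not called. In 1-MCP+O3 vs 1-MCP, processed signals gave 0.16 for FAR1, 0.0087 for NF-YA, -0.032 for ZF-HD and -0.094 for YABBY, scaling between arrays gave -0.0019 for MYB, and no replicate block gave 0.22 for HD-ZIP. For the difference, processed signals gave 0.64 for FAR1 and no replicate block 0.14 for bHLH. Leaving out a replicate, S1Fa-like ran from -0.18 to 0.66 in 1-MCP vs Control, from -0.24 to 0.92 in O3 vs Control and from -0.13 to 0.40 for the difference. ZF-HD ran from -0.40 to 0.11 in O3 vs Control. In 1-MCP+O3 vs 1-MCP, FAR1 ran from -0.43 to 0.018, MYB from -0.38 to 0.48 and bHLH from -0.070 to 0.82, and for the difference bHLH ran from -1.08 to 0.24. Under each of 3 other level normalizations, at least 47 of the 48 orders between groups were kept.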
